A study of Mus musculus with 2 samples.

Results

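Gelsolin, its relatives and the cofilins are the proteins that cut, cap and take apart actin filaments, and 6 of their genes were followed here in the adult mouse heart: Gsn, Capg, Flii and Svil of the gelsolin family, and the cofilins Cfl1 and Cfl2. They were taken by gene name from the annotated genes of the deposited tables, with all transcript classes, and are 6 of 14514 annotated nuclear genes with at least 1 read. They held 100 of 49707 transcript models in replicate 1 and 145 of 60789 in replicate 2, or 0.720% and 0.659% of the reads. The hearts came from male B6CASTF1/J mice, a hybrid of a C57BL and a CAST strain, aged 2 months and not described as treated. RNA was read as whole transcripts by long-read sequencing with 2 libraries in the only group and 2 µg of starting RNA per library. The labels give the libraries separate biosamples, but another text field names the same animal number for both, so all spreads and p-values describe these 2 libraries only. The design has no second condition, and the questions were how much of each gene was read, from which first exon and splice sites, and whether the libraries differed.

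Gelsolin is built from repeats of a calcium-responsive domain and both severs filaments and caps their fast-growing ends. The gene makes a cytoplasmic form and a secreted form, plasma gelsolin, which carries a signal peptide and clears actin from the blood. Cofilins bind older filament stretches, cut them and return subunits to the monomer pool, and Cfl2 is the muscle cofilin whereas Cfl1 is made in most cell types. CapG caps without severing, flightless (Flii) joins gelsolin repeats to leucine-rich repeats and also acts in transcription, and supervillin (Svil) ties actin and myosin II to membranes.

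The libraries held 454069 and 661958 reads, of which 430251 and 629896 fell on annotated nuclear genes and form the denominator of CPM, reads scaled to a common total. Each long read was counted once, so levels were not divided by transcript length. Whether longer transcripts were read less often was not tested, which limits comparisons of level between genes of unlike length. Reads of 1 molecule copied more than once cannot be told apart, and the 95% intervals cover counting error only. Heart markers were present, with Myh6 at 36490 and 27652 CPM, and 3 of 4 thymus and lung markers had no read. The libraries differed in erythroid RNA, with all 5 erythroid markers higher in replicate 1 and a summed level of 13799 against 3663 CPM. The summed level of 4 adipocyte markers was lower in replicate 1, at 60.4 against 152 CPM. Most of it was Car3 (48.8 and 129 CPM), which was called (log2 ratio -1.37, exact binomial test, adjusted p = 0.00604). Cfd had 4 and 11 reads, and Adipoq (0 and 2) and Plin1 (1 and 2) were barely read.

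The starts of Gsn-201 and Gsn-205, 2 GENCODE M21 transcripts of Gsn (ENSMUSG00000026879.14, mm10 chr2:35256380-35307892, plus strand), lie 26000 bases apart. The choice between them decides whether the protein can be secreted. Gsn-201, with 17 exons and 780 codons, begins at chr2:35282380 and opens its reading frame inside its own first exon. Gsn-205, with 18 exons and 731 codons, begins at chr2:35256380, and its start codon lies in an exon that both forms share, chr2:35283905-35284109. The secreted form therefore carries 49 more codons at its start. The 138 coding bases of the first exon of Gsn-201 are shown first, then the first 60 coding bases of Gsn-205, then the junction of Gsn-201 that joins its first exon to the shared exon. Sequences are from the GENCODE M21 transcripts, and capitals mark the start codon, in the junction that of the shorter form.
Gsn-201, chr2:35282464-35282601: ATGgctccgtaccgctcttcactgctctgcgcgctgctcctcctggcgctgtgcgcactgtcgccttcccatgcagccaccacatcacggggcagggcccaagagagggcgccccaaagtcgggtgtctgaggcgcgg
Gsn-205, chr2:35283914-35283973: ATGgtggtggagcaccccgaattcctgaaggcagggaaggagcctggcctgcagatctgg
Gsn-201 junction: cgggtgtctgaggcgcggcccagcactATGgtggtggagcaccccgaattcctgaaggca
In the junction, 9 bases of the shared exon precede the capitals, so a read of Gsn-201 runs through the start codon of the cytoplasmic form in the same frame.

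Nearly all Gsn molecules of these hearts began at the exon of the secreted form. Among spliced reads whose first exon ended at an annotated first donor, the last base of a first exon, 2734 of 2750 in replicate 1 and 3629 of 3640 in replicate 2 used the donor at chr2:35282601. That was 99.4% (Clopper-Pearson 95% interval 99.1 to 99.7) and 99.7% (99.5 to 99.8), a mean of 99.6% ± 0.198 (SD, n = 2). The upstream donor at chr2:35256473, which serves Gsn-205 and 4 more annotated transcripts, had 16 reads, 0.582% (0.333 to 0.943), in replicate 1 and 11 reads, 0.302% (0.151 to 0.540), in replicate 2. In levels, the secreted start had 6354 and 5761 CPM and the upstream start 37.2 and 17.5 CPM. The intervals of the upstream share overlap between the libraries, and no difference in first donor use was called (Fisher's exact test, p = 0.118, adjusted p = 1 over 318 genes with a choice of first donors). No gene of the 318 was called on this test, 0% of those tested, and 2.83% had an unadjusted p under 0.05.

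**Figure D1:**
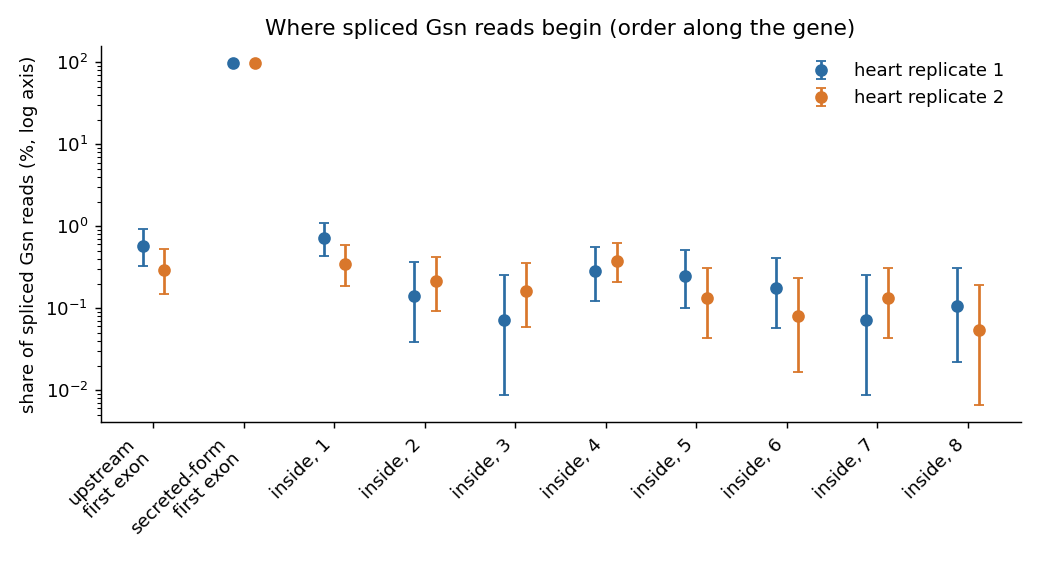
Share of spliced Gsn reads (percent, log axis) that begin at each first exon, in order along the gene, with 95% Clopper-Pearson intervals for the 2 libraries. The first exon of the secreted form holds 97.3% and 97.8%, and the upstream exon and each of 8 exons inside the gene with at least 5 reads hold under 1%.

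No single exon inside the gene began more than 1% of the reads either. Counted over all spliced Gsn reads, the secreted donor took 97.3% (96.6 to 97.9) and 97.8% (97.3 to 98.2). A start in the shared exon, with its donor at chr2:35284109, had 20 and 13 reads, and these reads do not show which start they came from. The full match to Gsn-201 had 2671 and 3538 reads, 94.8% and 95.03% of all reads of the gene. The full match to Gsn-205 had 14 and 10 reads, 0.497% and 0.269%. Of 7 annotated Gsn transcripts, these were the only 2 with a full match in either library.

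The bases before both starts are shown because the reads separate them so widely. RefSeq lists 3 Gsn starts on build GRCm38.p6, and the windows are the 250 bases before the 2 nearest to the starts of Gsn-205 and Gsn-201, plus strand. The RefSeq start lies 21 bases before that of Gsn-205 and coincides with that of Gsn-201. The remaining RefSeq start is not shown. The windows are printed with matches to the searched motifs in capitals.
Upstream start, chr2:35256109-35256358: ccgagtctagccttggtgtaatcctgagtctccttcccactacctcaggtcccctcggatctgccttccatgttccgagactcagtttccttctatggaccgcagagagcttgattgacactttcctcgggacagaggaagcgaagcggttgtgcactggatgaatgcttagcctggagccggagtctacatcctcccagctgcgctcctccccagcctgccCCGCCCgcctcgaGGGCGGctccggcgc
Secreted start, chr2:35282130-35282379: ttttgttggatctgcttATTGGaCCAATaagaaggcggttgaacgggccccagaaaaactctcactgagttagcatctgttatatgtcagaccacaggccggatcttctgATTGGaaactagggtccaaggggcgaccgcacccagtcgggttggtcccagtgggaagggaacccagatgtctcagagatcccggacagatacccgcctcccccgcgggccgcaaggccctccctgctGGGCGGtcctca
Searched on both strands were the letters TATAAA of the TATA box, CCAAT of the CCAAT box and GGGCGG of the GC box, with overlapping matches counted, and the CArG box and MEF2 site by their usual forms. The secreted start had 3 matches to CCAAT and 1 to GGGCGG, and the upstream start had 2 matches to GGGCGG and none to CCAAT. Among 32851 RefSeq promoters of this length, 33.8% held CCAAT and 32.7% held GGGCGG. Neither window held TATAAA, a CArG box or a MEF2 site, which 12.4%, 1.47% and 2.92% of promoters held. These are matches of letters and not measured sites.

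Gsn was by far the most read of the 6 genes, and Capg was barely read. Gsn had 2818 reads in replicate 1 and 3723 in replicate 2, which is 6550 and 5911 CPM, a mean of 6230 ± 452 (SD, n = 2). It ranked 13 among the 14514 genes by mean level, between Tnnc1, cardiac troponin C, at 6550 ± 365 CPM and Myl3, a ventricular myosin light chain, at 5758 ± 53.9 CPM. The SDs of Gsn and of each neighbour overlap. The counting interval of Gsn was 6310 to 6796 CPM in replicate 1 and 5722 to 6103 in replicate 2. In whole-tissue RNA, more cells of a type and more RNA per cell cannot be told apart.

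Flii (ENSMUSG00000002812.4, chr11:60714123-60727263, minus strand) had 71 and 79 reads, 165 CPM (95% interval 129 to 208) and 125 CPM (99.3 to 156), a mean of 145 ± 28.0. Svil (ENSMUSG00000024236.18, chr18:4920540-5119299, plus strand) had 35 and 57 reads, 81.3 CPM (56.7 to 113) and 90.5 CPM (68.5 to 117), a mean of 85.9 ± 6.47. Capg (ENSMUSG00000056737.14, chr6:72544391-72562983, plus strand) had 2 reads and 1 read, at or under the 3 reads that a count of 0 allows, and no fold is given for it. Of all gelsolin family reads, Gsn took 96.3% (95.6 to 97.0) and 96.5% (95.8 to 97.0), a mean of 96.4% ± 0.100. Flii took 2.24% ± 0.269 and Svil 1.34% ± 0.198. These are shares of reads from transcripts of unlike length, 2653 bases in Gsn-201 and 7423 in Svil-210, with no correction for length.

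Among the cofilins the muscle gene led. Cfl2 (ENSMUSG00000062929.8, chr12:54858809-54862877, minus strand) had 130 and 232 reads, 302 CPM (252 to 359) and 368 CPM (322 to 419), a mean of 335 ± 46.8. Cfl1 (ENSMUSG00000056201.8, chr19:5490455-5495201, plus strand) had 42 and 58 reads, 97.6 CPM (70.4 to 132) and 92.1 CPM (69.9 to 119), a mean of 94.8 ± 3.92. Cfl2 made up 75.6% (68.5 to 81.8) and 80.0% (74.9 to 84.4) of the reads of both genes, a mean of 77.8% ± 3.12. The libraries' intervals overlap, and Cfl2 led in both. Destrin (Dstn), the related depolymerising factor, had 80 and 110 reads. With it in the sum, Cfl2 held 54.8% ± 4.53, Dstn 29.6% ± 3.00 and Cfl1 15.6% ± 1.53 of the reads.

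By mean level the order was Gsn, Cfl2, Flii, Cfl1, Svil and Capg. The counting intervals of Gsn, Cfl2 and Svil did not overlap those of the next gene in the order in either library. Those of Flii and Cfl1, and of Cfl1 and Svil, overlapped in both libraries, so these neighbours were not separated. The nearest genes in mean level were Gm14303 at 337 and Clic4 at 335 CPM for Cfl2, Spcs3 and Swi5 at 145 CPM each for Flii, Eml1 at 95.1 and Acot7 at 94.8 CPM for Cfl1, and Wars and Btf3l4 at 85.9 CPM each for Svil. For Capg the rank is shared by many genes with 3 reads and names no neighbour.

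**Figure D2:**
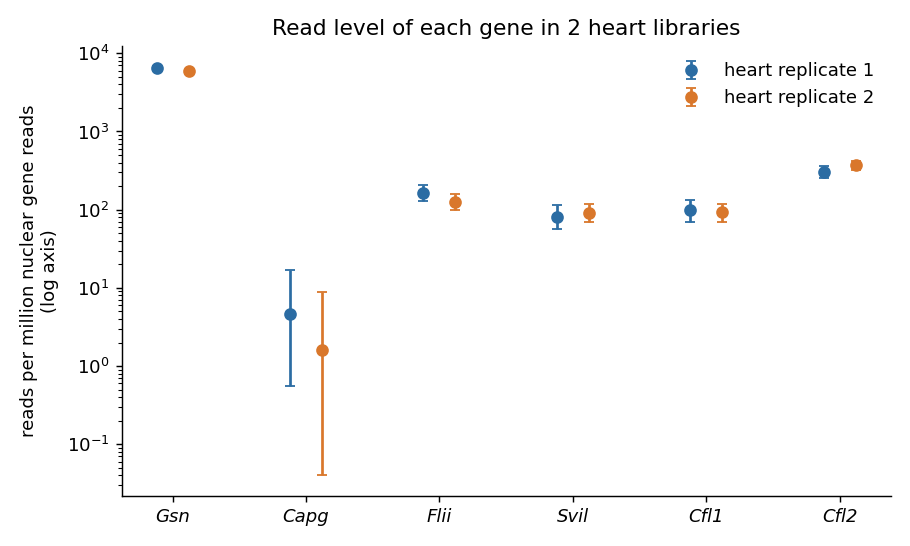
Level of each gene in CPM (log axis) in the 2 heart libraries, with exact Poisson 95% intervals of the counts. Gsn sits at 6550 and 5911 CPM, the other genes at 81.3 to 368 CPM, and Capg at 4.65 and 1.59 CPM with intervals that reach below 1.

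No member was called between the libraries. An exact two-sided binomial test of each gene's reads, with Benjamini-Hochberg adjustment over 8086 genes of at least 10 summed reads, called 0 of 5 members at an adjusted p under 0.05 and a 2-fold difference, against 0.322% of all genes tested. At an adjusted p under 0.05 alone, 1 of 5 passed, against 0.693% of all genes, and the same gene was the only member with an unadjusted p under 0.05, against 7.11%. It was Gsn, 1.11-fold higher in replicate 1 (95% interval 1.05 to 1.16, adjusted p = 0.00885). This call was lost with TMM scaling (adjusted p = 0.211) and DESeq2 size factors (adjusted p = 0.0921), and the direction turned when spike-in reads set the scale (log2 ratio -0.12, adjusted p = 0.0350). The median log2 ratio of the 5 genes was 0.09 and that of all genes tested 0.01. Beside the Gsn difference stand the erythroid and adipocyte levels given above and those of other cell types. The 9 fibroblast markers had a summed level of 1304 and 1041 CPM, and 6 of them were higher in replicate 1, though Dcn, the most read, had a log2 ratio of -0.05. All 7 endothelial markers were higher in replicate 1, with a summed level of 1188 and 1019 CPM and a median log2 ratio of 0.30. Of 6 cardiomyocyte markers 2 were higher in replicate 1, among them Myh6, the most read, with a log2 ratio of 0.40. Pln, the next most read, had a log2 ratio of -0.15 (exact binomial test, adjusted p = 0.00559). The 6 smooth muscle and pericyte markers had a summed level of 516 and 575 CPM, with 3 higher and 3 lower in replicate 1. The macrophage and leukocyte markers had 416 and 384 CPM. None of the erythroid, fibroblast, endothelial, cardiomyocyte or smooth muscle and pericyte markers was at 0. The part of these cell types in the difference was not tested.

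For the other genes the intervals of the difference bound what the 2 libraries can exclude. Flii was 1.32-fold higher in replicate 1 (0.941 to 1.84) and Cfl2 1.22-fold higher in replicate 2 (0.979 to 1.52), with adjusted p of 0.808 and 0.784 in the exact binomial test. Svil was 1.11-fold higher in replicate 2 (0.718 to 1.75) and Cfl1 1.06-fold higher in replicate 1 (0.695 to 1.60), both with an adjusted p of 1. The direction of Cfl1 turned with spike-in scaling (log2 ratio -0.17) and without Genomic models (-0.42). All 4 intervals, scaled to the nuclear gene totals, hold equality, and their upper ends lie between 1.52-fold and 1.84-fold. They do not cover the choice of scale. With spike-in scaling Cfl2 had a log2 ratio of -0.55 (exact binomial test, adjusted p = 0.0155).

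The other genes of actin filament turnover ranged from Capza2, read more than Cfl2, down to genes without a read. Of 36 names listed for actin filament turnover, 35 were found in the annotation, all but Aip1. Of these, 29 had a read and 23 had at least 10. None of the 23 was called, against 0.322% of all genes tested, and 1 (Tmsb4x, p = 0.0201 in the exact binomial test) had an unadjusted p under 0.05, against 7.11%, so neither count stands above the background. Of the 23, 12 were higher and 11 lower in replicate 1, and their median log2 ratio was 0.08, against 0.01 over all genes. The other gelsolin relatives, villin (Vil1), advillin (Avil), scinderin (Scin) and villin-like (Vill), had no read in either library, which allows up to 3 reads each, 6.97 and 4.76 CPM. Gc, the vitamin D-binding protein that works with plasma gelsolin in clearing actin from blood, also had no read.

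Of the same list, 11 had at least 100 reads. Barbed-end capping was represented by Capza2 at 410 ± 34.8 and Capzb at 311 ± 19.8 CPM, the subunits of capping protein, while Capza1, the other alpha subunit, was at 21.6 ± 0.925 CPM. Wdr1, the partner that helps cofilin take filaments apart, was at 258 ± 9.99 CPM and Coro6, a coronin, at 307 ± 39.1 CPM. Tmod1, which caps pointed ends of muscle thin filaments, was at 281 ± 24.0 CPM and Lmod2, a leiomodin that lengthens them, at 149 ± 6.99 CPM. The monomer binders Pfn1, Tmsb10, Twf2 and Tmsb4x were at 224 ± 21.6, 200.4 ± 3.99, 158 ± 30.0 and 128 ± 36.6 CPM, and Dstn was at 180.3 ± 7.99 CPM. Of the kinases that inactivate cofilin, Tesk1 was at 72.2 ± 3.46 and Limk2 at 27.8 ± 10.1 CPM, whereas Limk1 had 1 read in all and Tesk2 none. Of the phosphatases that reactivate it, Ssh2 was at 22.4 ± 2.05 and Ssh1 at 9.04 ± 2.93 CPM, and Ssh3 and Pdxp had 1 read each.

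How completely the genes were described by annotated transcripts differed widely. Full matches to a GENCODE transcript, the class Known, made up 95.3% of Gsn reads in both libraries, 84.6% and 77.6% of Cfl2 reads, 69.0% and 72.4% of Cfl1 reads, 69.0% and 53.2% of Flii reads, and 2.86% and 0% of Svil reads. Over all nuclear genes the share was 75.7% and 75.6%. The intervals of Gsn (94.4 to 96.0 in replicate 1) and Svil (0.0723 to 14.9) lay on opposite sides of that value. Svil reads were mostly incomplete splice matches (ISM), models that follow part of an annotated intron chain, at 65.7% and 70.2%, against 10.8% and 11.05% over all genes.

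**Figure D3:**
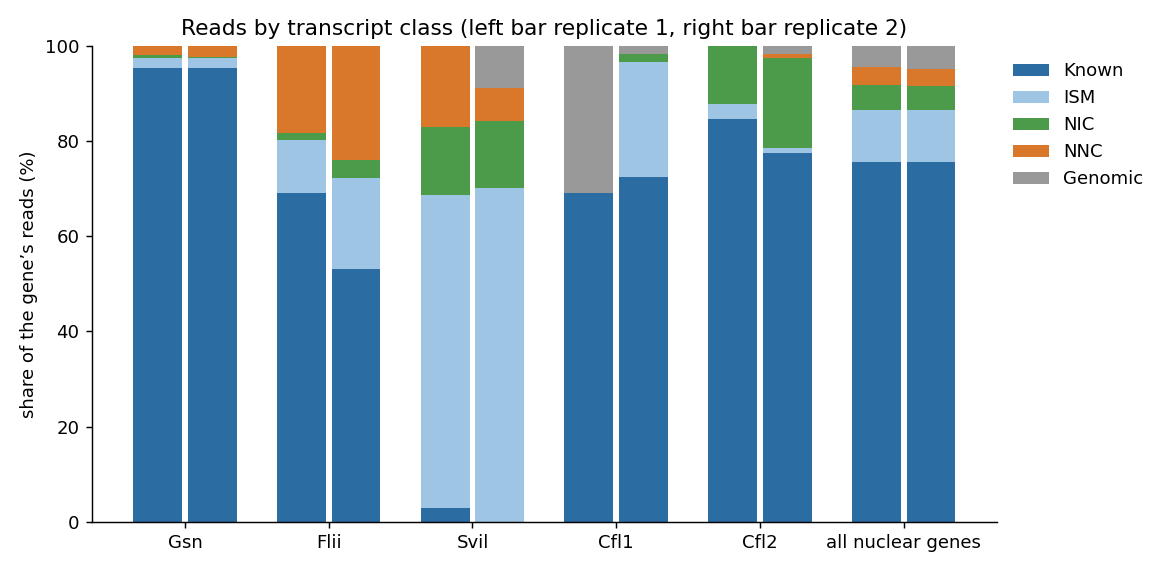
Share of each gene's reads (percent) by transcript class, left bar replicate 1 and right bar replicate 2, beside all nuclear genes. Known is a full match, ISM a partial chain, NIC a new combination of known splice sites, NNC a chain with at least 1 unannotated site, and Genomic a model that does not follow the splice sites. Gsn is almost all Known and Svil mostly ISM.

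Reads across the Svil junctions thinned out toward the start of the gene. Svil-210, with 38 exons and 7423 bases, was its only full match, with 1 read. The last junction of this transcript was crossed by 34 and 51 reads, and the junction 3651 bases from the end by 21 and 21. The first junction, 6891 bases from the end, was crossed by 3 and 6 reads. Reads from annotated starts with another first exon do not cross it. The next junction, 6833 bases from the end, had 5 and 8 reads. A first donor of a coding transcript with an annotated start codon began 17.1% (6.56 to 33.6) and 15.1% (6.75 to 27.6) of spliced Svil reads. Coding genes whose longest annotated transcript exceeds 6000 bases reached such a donor in 72.5% and 70.0% of their spliced reads and so lay above the Svil interval. Of the annotated Svil starts, that of Svil-210 had 3 and 6 reads and the most upstream, shared by Svil-203, 2 and 2, so the promoter in use cannot be ranked at this depth. Other reads began inside the gene, with first exons ending at chr18:5056849 (4 and 6 reads) and chr18:5063770 (8 and 2 reads). Neither is an annotated first donor, and whether these are starts or shortened reads was not tested. Model lengths of spliced Svil reads had a median of 4911 and 3985 bases and reached 8104 and 8034.

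In the shorter genes most spliced reads reached the first junction. The first junction had 97.3% and 97.7% of the reads of the last in Gsn, and 88.7% and 79.5% in Flii, whose transcript has 30 exons and 4060 bases. Reads with a first donor of a start-codon transcript made up 98.0% ± 0.157 of spliced Gsn reads, 97.8% ± 3.14 of Cfl1, 84.1% ± 6.54 of Flii and 80.4% ± 4.53 of Cfl2 reads. The value over all coding genes was 88.1% ± 0.173. Coding genes whose longest annotated transcript has 2000 to 4000 bases, the range of Gsn, Cfl1 and Cfl2, had 91.4% ± 0.205. Those of 4000 to 6000 bases, the range of Flii, had 84.8% ± 0.545. Most of the remaining Cfl2 reads, 19 of 21 and 48 of 52, began at an annotated first exon without a start codon. All these shares leave out single-exon reads. Over all Cfl1 reads, 29 of 42 and 43 of 58 began at the first donor of a start-codon transcript.

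**Figure D4:**
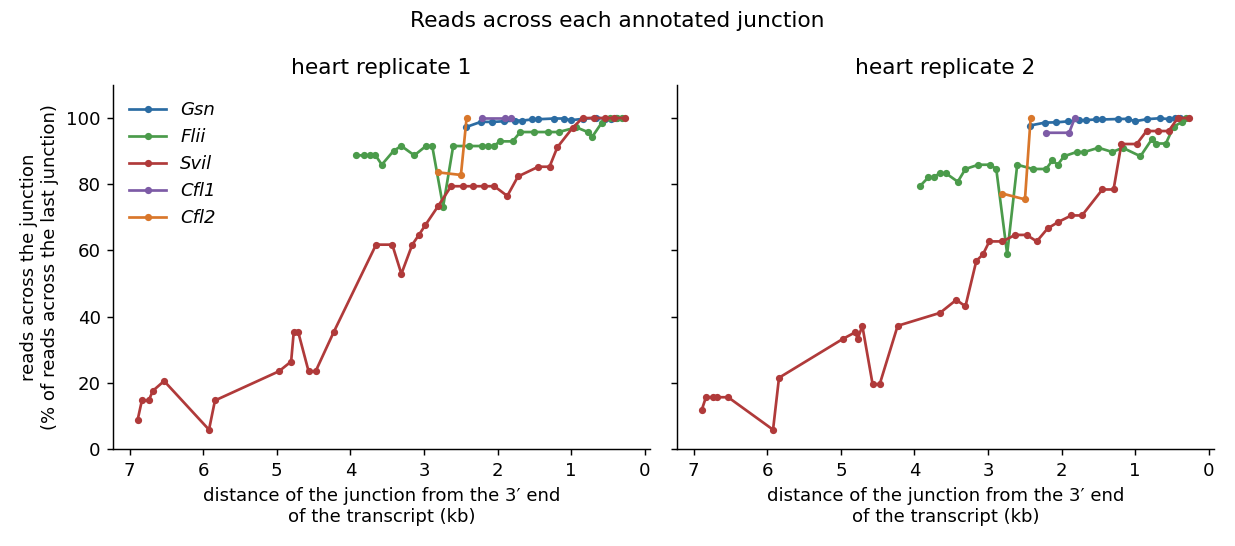
Reads across each junction of the most read coding transcript as a percent of reads across its last junction, against the distance of the junction from the 3′ end in kb, for the 2 libraries. Gsn and Cfl1 stay near 100%, Flii falls to 88.7% and 79.5% at its first junction with a dip where an alternative acceptor is used, and Svil falls to 8.82% and 11.8%.

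Flii had an unannotated acceptor that took a large part of its reads. The intron of Flii-201 at chr11:60720498-60720637 was removed as annotated in 52 of 65 and 46 of 66 reads, and with an acceptor 3 bases further in by 13 of 65 and 20 of 66 reads. The alternative share was 20.0% (11.1 to 31.8) and 30.3% (19.6 to 42.9), a mean of 25.2% ± 7.29, and the intervals overlap. The joined exons are shown in both forms, with the 3 bases that only the annotated form keeps in capitals.
Annotated: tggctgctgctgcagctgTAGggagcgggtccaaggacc
Alternative: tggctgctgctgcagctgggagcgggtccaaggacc
The bases read TAG, the letters of an acceptor, and directly follow the annotated cut. They fall after the first base of a codon, and their loss keeps the frame and shortens the predicted protein from 1271 to 1270 codons. The chain with this site that is otherwise that of Flii-201 was the most read Flii model outside the annotation, with 10 and 13 reads, the same introns in both libraries. Over all introns crossed, 0.937% and 1.60% of Flii crossings used an unannotated intron, against 0.836% and 0.852% over all nuclear genes. The printed bases are those of the annotated transcript, and the alleles of the hybrid mice were not compared with them. Whether the unannotated Flii acceptor is splicing or an error of alignment was not tested.

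In Gsn, unannotated sites were many and each rare. The files held 59 unannotated Gsn introns beside 20 annotated ones, yet they made up only 0.168% and 0.191% of crossings. The most used was an acceptor 2 bases into the exon at chr2:35302493, taken by 16 of 2803 reads, 0.571% (0.327 to 0.925), and 30 of 3700 reads, 0.811% (0.548 to 1.16).
Annotated: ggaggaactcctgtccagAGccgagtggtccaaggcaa
Alternative: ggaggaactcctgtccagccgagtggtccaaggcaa
Here the capitals mark the 2 bases that are lost, which shifts the frame. It leaves 550 codons in place of 780, and 521 of them lie before the site. Donors 3 bases (8 and 14 reads) and 6 bases (3 and 9 reads) before their annotated sites keep the frame. The first junction itself was joined to a point 5 bases further in by 5 reads in each library, 0.183% and 0.138%. That shift of frame would leave 72 codons. Whether these rare sites are splicing or errors of reading and alignment was not tested. The most read Gsn chain outside the annotation had 15 and 25 reads, and 25 of 85 spliced chains other than full matches were found in both libraries.

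The cofilin genes share their layout, with 166 codons each and a start codon that forms the last 3 bases of the first exon. Their coding sequences match at 356 of 498 aligned bases (71.5%), counted without gaps. The first 60 coding bases, with the start codon in capitals, span the first intron in both genes.
Cfl1-202: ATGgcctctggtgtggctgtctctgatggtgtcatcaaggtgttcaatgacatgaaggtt
Cfl2-201: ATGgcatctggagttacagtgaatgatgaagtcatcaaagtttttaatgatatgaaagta
Because only the start codon lies before the first intron, a change of first exon removes it and leaves the rest of the coding sequence in place.

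Cfl2 reads used 2 first exons. The first donor at chr12:54862744, which carries the start codon, began 107 and 176 of the spliced reads, and the donor at chr12:54862411, which belongs to the non-coding Cfl2-202 and Cfl2-204, began 19 and 48. The second donor took 15.1% (9.33 to 22.5) and 21.4% (16.2 to 27.4) of the reads that joined either donor to exon 2, a mean of 18.3% ± 4.49. No difference between the libraries was called by Fisher's exact test (p = 0.159, adjusted p = 1 over 465 genes, none called, 0%), a test added after the files were seen. Of these reads, 12 and 27 joined this exon to the remaining introns of Cfl2-201, the same chain in both libraries, a combination absent from the annotation and the most read Cfl2 model outside it.

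The second Cfl2 exon also ended at 3 donors. Of reads entering the next intron, 106 of 124 and 172 of 216 left at the donor of Cfl2-201, 85.5% (78.0 to 91.2) and 79.6% (73.6 to 84.8). A donor 254 bases back was used by 11 and 32 reads, 8.87% (4.51 to 15.3) and 14.8% (10.4 to 20.3), and a donor 143 bases back by 7 and 12 reads, 5.65% (2.30 to 11.3) and 5.56% (2.90 to 9.503). Both lie inside the exon of the coding form, and the exon bases around them are shown with the GT that follows the cut in capitals.
Donor 254 bases back, chr12:54861762-54861797, minus strand: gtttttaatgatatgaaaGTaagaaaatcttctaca
Donor 143 bases back, chr12:54861651-54861686, minus strand: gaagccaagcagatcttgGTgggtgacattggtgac
Read from the start codon of Cfl2-201, the shorter exons end the frame after 21 and 58 codons in place of 166. The shortest exon belongs to the annotated Cfl2-203 (11 and 27 reads), a processed transcript. The other belongs to Cfl2-206 (4 and 6 reads), annotated as a target of nonsense-mediated decay, and to Cfl2-202 (3 and 6 reads), which begins at the alternative first exon. Cfl2-201 itself had 92 and 141 reads, 70.8% (62.2 to 78.4) and 60.8% (54.2 to 67.1) of the gene's reads. No difference between the libraries was called in the use of the 3 known transcripts with at least 10 reads (chi-square permutation test with 100000 random tables, p = 0.493, adjusted p = 1). For the pair Gsn-201 and Gsn-205 Fisher's exact test gave p = 0.150 and an adjusted p of 1. This test called 0.182% of 550 genes and neither of the 2 members with enough reads, whereas 4.73% of the 550 had an unadjusted p under 0.05.

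**Figure D5:**
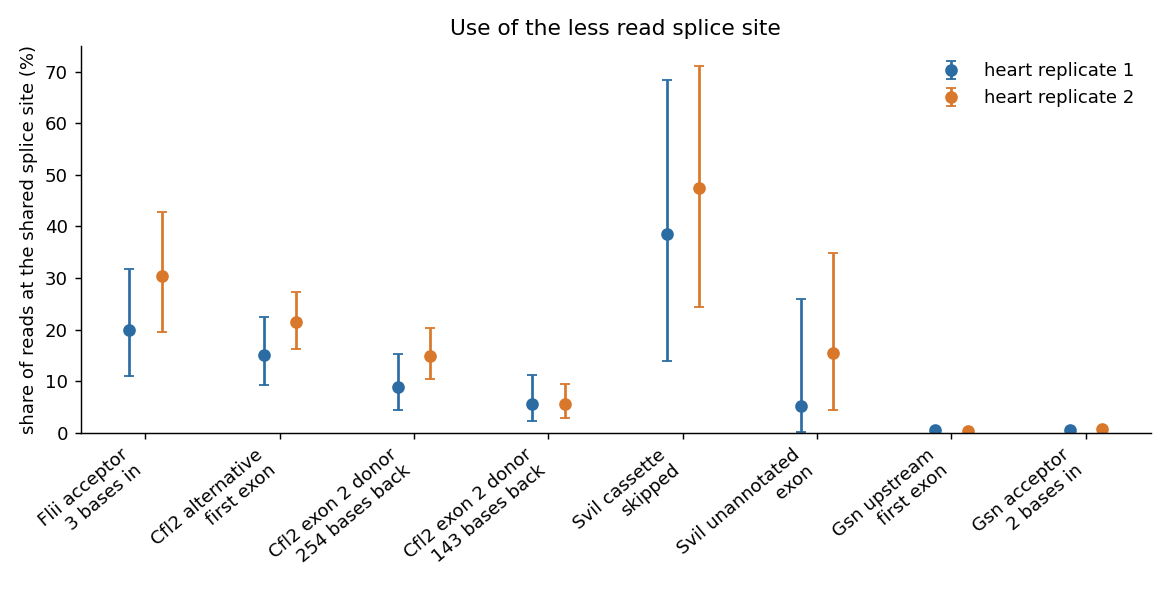
Share of reads (percent) that took the less read of the splice choices at a shared site, with 95% Clopper-Pearson intervals, in the 2 libraries. The Flii acceptor and the Cfl2 choices lie at 5.56% to 30.3%, the Svil choices rest on few reads and have wide intervals, and the Gsn choices lie under 1%.

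Cfl1 was plain in its splicing. All reads with a full match, 29 and 42, followed Cfl1-202, a transcript of 2354 bases, and no unannotated intron was read. The rest were mostly single-exon reads that ended at chr19:5494029, within the last exon of Cfl1-202. Replicate 1 had 12 of them in a model classed Genomic (chr19:5493579-5494029) and replicate 2 had 12 in a model classed ISM (chr19:5493501-5494029). The models overlap, and their class changes the Cfl1 level when Genomic models are left out, from 94.8 to 78.9 CPM.

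Svil had 3 splice choices in which each alternative had at least 5 summed reads, all with few reads. An annotated cassette exon, kept in Svil-210 and absent from Svil-204 and Svil-211, was skipped by 5 of 13 reads, 38.5% (13.9 to 68.4), and 9 of 19 reads, 47.4% (24.4 to 71.1). Of reads that joined a donor to the annotated acceptor or to one 3 bases before it, 3 of 5 and 6 of 9 took the earlier site. Another annotated intron from that donor had 3 and 1 reads, which these counts leave out. An unannotated exon was entered by 1 of 19 and 4 of 26 reads. The counts are too small to order the alternatives. The most read Svil chain besides the full match was an ISM model of 8 exons at the 3′ end, with 2 and 6 reads. Genes on the opposite strand overlap some of these loci, Llgl1 at Flii with 12 and 5 reads and Snx32 at Cfl1 with 2 and 2, and the sources used here do not say how strand was assigned.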

How the data were processed

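Long-read RNA was measured in 2 heart libraries of 1 group. The authors deposited, for each library, whole-number read counts per transcript model with no normalization, and exon structures of the models. Per the deposited text files, reads were compared with GENCODE M21 on mm10, and models outside it name TALON as their source. Which aligner, read correction and program versions they used is not given in the sources used here. Model ends are those the authors reported.

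Reads were summed per annotated gene and scaled to the nuclear gene total, 430251 and 629896 reads. Genes with at least 10 summed reads were tested by an exact binomial test (SciPy 1.17.1). Transcript and first donor use was tested where both libraries had 20 or more reads of the gene, over items with at least 10. Calls needed an adjusted p below 0.05 together with a shift of 10 percentage points. Log2 ratios are replicate 1 over replicate 2 with 0.5 added. Splice choices needed 5 summed reads. Alternatives used edgeR 4.0.16 (TMM), DESeq2 1.42.0 size factors, other totals, minimums and classes. Shares have Clopper-Pearson 95% intervals, and a count of 0 allows 3 reads. Tests were run on simulated counts first. The genes named were the 6 members with their transcripts of at least 10 reads, the most read other chain found in both libraries, neighbours in level, and listed genes with at least 100 reads. Cofilin kinases and phosphatases, unread gelsolin relatives, Capza1 and single splice sites were named after their values were seen. Members and lists were chosen with earlier results of these data known.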

Additional observations from a re-analysis of the deposited data

Results flagged for a closer look

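Inside Svil, the authors' tables held unannotated single-exon loci on the opposite strand, data that the comparisons above do not use. Summed over the gene they had 5 reads in replicate 1, over 4 models, and 4 in replicate 2, over 2 models. The sums lie above the 3 reads that a count of 0 allows, but they run over the whole gene. Each model alone had 1 or 2 reads and lies below that limit, and there is no control sample to compare with. Models ending at chr18:4974636 had 2 reads in each library. Those starting at chr18:5006002 had 1 read in replicate 1 and 2 in replicate 2. Their strand is uncertain, since the sources used here do not say how it was assigned.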

How the results depend on the processing

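No paired analysis was possible because the series has 1 group of 2 libraries. The counts of members called, 0 in each test, stayed 0 under every alternative run. With Known transcripts only, levels fell to 90.3 CPM for Flii, 1.16 for Svil, 67.0 for Cfl1 and 271 for Cfl2, and the Gsn share of family reads rose to 98.5%. Without Genomic models the Cfl1 level was 78.9 CPM, and its log2 ratio between the libraries turned from 0.09 to -0.42. With all spliced Gsn reads in the denominator, an alternative added after the files were seen, the secreted share was 97.5%. Scaling to spike-in reads moved the median log2 ratio of all genes from 0.01 to -0.25, turned the ratios of Gsn to -0.12 and Cfl1 to -0.17, and brought Cfl2 past an adjusted p of 0.05 (log2 ratio -0.55, adjusted p = 0.0155 in the exact binomial test), under 2-fold. The Gsn difference lost its adjusted p with TMM and DESeq2 size factors. Leaving out a library gives the values of the other, printed above, which lie within 1 SD of the mean by construction. The number of genes called ran from 15 of 6351 tested with Known transcripts only to 67 of 8086 with spike-in scaling, against 26 of 8086. With no minimum of reads it was 23 of 14514. The cause of these shifts was not tested. Depth limits Capg, Svil splicing and the upstream Gsn start, each with few reads.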
